A study of Mus musculus with 6 samples.

Results

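The miR-181 family was examined in mouse liver through its mature miRNAs from both arms of the hairpin. Members were chosen by name, as the entries of the table that begin with mmu-miR-181a-, mmu-miR-181b-, mmu-miR-181c- or mmu-miR-181d-, and 8 of the 1039 entries were found. Of these, 4 were 5p arms and 4 were 3p arms. The family was selected with the values of these libraries already known, so its high level in one library of the M group is given below as a description and carries no test.

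Livers came from wild type ICR mice aged 30 weeks, all of which had eaten a high-fat diet for 12 weeks before 8 weeks of gavage, during which the diet went on. ICR is an outbred stock, so the mice were not genetically identical. The J group received JTXK granule, a Chinese herbal compound used against diabetes, and the M group (model) received sterile water. Small RNA was sequenced from 3 mice chosen out of each larger group, and since both groups were on the high-fat diet, their comparison addresses the granule alone and not the diet.

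A miRNA is cut from a hairpin precursor as a 5p and a 3p strand, of which one, the guide, usually stays in the Argonaute protein while the other, the passenger, is mostly degraded. The guide finds its targets through the seed, bases 2 to 8 of the strand. For miR-181 the 5p strand is the usual guide, and the family is best known from lymphocytes, where miR-181a tunes the sensitivity of the T cell receptor. It is also made in other blood cells and in endothelium, among other tissues.

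The 4 miR-181 5p strands are printed first because they show what the family shares. Sequences are those of RefSeq (GRCm38.p6), read 5′ to 3′, with the seed in capitals.
mmu-miR-181a-5p: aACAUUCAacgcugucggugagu
mmu-miR-181b-5p: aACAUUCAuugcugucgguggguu
mmu-miR-181c-5p: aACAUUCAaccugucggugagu
mmu-miR-181d-5p: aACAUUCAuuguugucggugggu

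All 4 strands carry the same seed, ACAUUCA, and no other of the 1679 mature names in the RefSeq table carried it. miR-181a-5p and miR-181c-5p differ by an edit distance of 1 base, miR-181b-5p and miR-181d-5p by 2, and the other pairs by 4 or 5. How the authors assigned reads that match more than one strand is not given in the sources used here, so levels of the closest pair are uncertain to that extent.

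The 3p strands are printed because they name the locus a read came from, which miR-181a-5p and miR-181b-5p, each encoded at a pair of loci, cannot do.
mmu-miR-181a-1-3p: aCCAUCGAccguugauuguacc
mmu-miR-181a-2-3p: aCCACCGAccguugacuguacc
mmu-miR-181c-3p: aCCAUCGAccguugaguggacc
mmu-miR-181b-1-3p: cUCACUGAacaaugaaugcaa

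miR-181a-1-3p and miR-181c-3p share the seed CCAUCGA although they come from different chromosomes. They differ from each other by an edit distance of 2 bases, as do miR-181a-1-3p and miR-181a-2-3p. How the authors assigned reads close to several of these strands is likewise not given. The split of 3p reads between loci, and the arm share of miR-181c, are uncertain to that extent. The 3p strands of the Mir181b-2 and Mir181d hairpins were not analysed here.

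The miR-181a hairpins show the same contrast within the precursor. Both arms are in capitals, the 5p arm first and the 3p arm second, and the 5p arms are identical.
Mir181a-1: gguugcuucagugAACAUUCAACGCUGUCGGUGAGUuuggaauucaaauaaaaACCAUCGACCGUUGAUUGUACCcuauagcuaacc
Mir181a-2: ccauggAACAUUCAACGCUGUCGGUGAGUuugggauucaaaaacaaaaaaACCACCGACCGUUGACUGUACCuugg

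In the GENCODE annotation of GRCm38 the hairpins form 3 genomic clusters. On chromosome 1, Mir181a-1 (chr1:137966455-137966541, plus strand) lies 97 bases before Mir181b-1 (chr1:137966639-137966718), within an exon of the long non-coding RNA A430106G13Rik on the same strand. On chromosome 2, Mir181a-2 (chr2:38852735-38852810, plus strand) and Mir181b-2 (chr2:38853830-38853918) are separated by 1019 bases and lie opposite an intron of Nr6a1, which encodes an orphan nuclear receptor. On chromosome 8, Mir181d (chr8:84178716-84178787, minus strand) and Mir181c (chr8:84178873-84178961) are 85 bases apart in an intron of Nanos3, a germ cell gene, on the same strand.

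Levels are given as RPM, the reads of a miRNA scaled to all miRNA reads of its library. The libraries held 2626353 to 4314134 miRNA reads, so that 3 reads corresponded to 0.695 to 1.14 RPM. M group replicate 1 had the fewest reads and stood apart from the rest. Its Pearson correlation with the other 5 libraries, on log2(RPM + 1) over the 548 miRNAs tested, was 0.931 to 0.941, against 0.973 to 0.989 among those 5. In this library 30 miRNAs, or 5.47% of the 548, were at least 2 higher on the log2(RPM + 1) scale than in every other library, and 7 of the 8 miR-181 members were among these 30. The most extreme was not a member: miR-298-5p reached 1010 RPM against at most 1.07 RPM elsewhere. In the other 5 libraries together 1 such miRNA was found, in J group replicate 3. In the title of M group replicate 1 the bracketed code begins with MX1, whereas those of M group replicates 2 and 3 begin with MX2. The meaning of the code is not given in the sources used here. The treatment comparisons by limma and by read ratios are therefore given with and without M group replicate 1.

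Liver identity was checked with marker miRNAs. All 5 hepatocyte miRNAs (miR-122, miR-192, miR-194 and miR-802 arms) were measured, and their summed level was 333768 RPM in M group replicate 1, within the 329507 to 380650 RPM of the other libraries. Of the 5, miR-122-5p and miR-802-5p were within the range of the others in that library. There miR-192-5p, at 86806 RPM, and miR-194-5p, at 12470 RPM, were below the lowest other values of 90205 and 13767 RPM, and miR-122-3p, at 288 RPM, was above the highest of 276 RPM. In bulk liver, fewer cells of a type and less RNA per cell cannot be told apart.

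The 5p strands made up most of the family. miR-181a-5p was the most abundant, with 421, 547 and 630 RPM in J group replicates 1 to 3 and 4951, 673 and 578 RPM in M group replicates 1 to 3. M group replicate 1 was 7.35-fold above the next highest library, and the other 5 libraries spanned a 1.60-fold range in which the groups overlapped.

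miR-181b-5p, which is encoded beside miR-181a on chromosomes 1 and 2, was measured at 83.4, 79.6 and 91.6 RPM in the J group and at 1464, 73.9 and 99.9 RPM in the M group. The excess of M group replicate 1 over the next highest library was 14.7-fold for this strand, the largest among the 5p strands. Without that library, the lowest and the highest values both belonged to the M group.

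The 5p strands of the chromosome 8 cluster were less abundant. miR-181c-5p stood at 44.5, 58.1 and 47.4 RPM in the J group and at 247, 50.7 and 57.5 RPM in the M group. For miR-181d-5p the values were 19.5, 17.6 and 14.6 RPM in the J group and 197, 16.7 and 22.1 RPM in the M group. These strands of neighbouring hairpins were thus 4.25-fold and 8.90-fold higher in M group replicate 1 than in the next highest library, and in the other 5 libraries the groups overlapped for both.

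Summed, the 3p strands were rarer by far, at 2.35% to 4.52% of the family's reads. miR-181a-2-3p, from chromosome 2, was read 63, 48 and 36 times in the J group (14.6, 13.4 and 12.8 RPM) and 182, 37 and 42 times in the M group (69.3, 10.8 and 9.78 RPM). All 3 J libraries were above M group replicates 2 and 3 and below M group replicate 1. It was the 3p strand with the highest level in each library other than M group replicate 1.

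miR-181a-1-3p, from chromosome 1, had 22, 15 and 27 reads in the J group (5.10, 4.19 and 9.63 RPM) and 422, 22 and 26 reads in the M group (161, 6.45 and 6.05 RPM). miR-181c-3p, from chromosome 8, had 20, 11 and 13 reads in the J group (4.64, 3.07 and 4.63 RPM) and 241, 7 and 18 reads in the M group (91.8, 2.05 and 4.19 RPM). M group replicate 1 exceeded the next highest library 16.7-fold and 19.8-fold, and both strands, which share a seed, stood above miR-181a-2-3p in that library alone.

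miR-181b-1-3p, the partner strand of miR-181b-5p on chromosome 1, was at the limit of detection. It had 2, 0 and 0 reads in the J group and 8, 1 and 0 reads in the M group. No library other than M group replicate 1 exceeded 3 reads, so no fold is given, and this member passed the filter of a mean above 1 RPM only through that library.

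**Figure D1:**
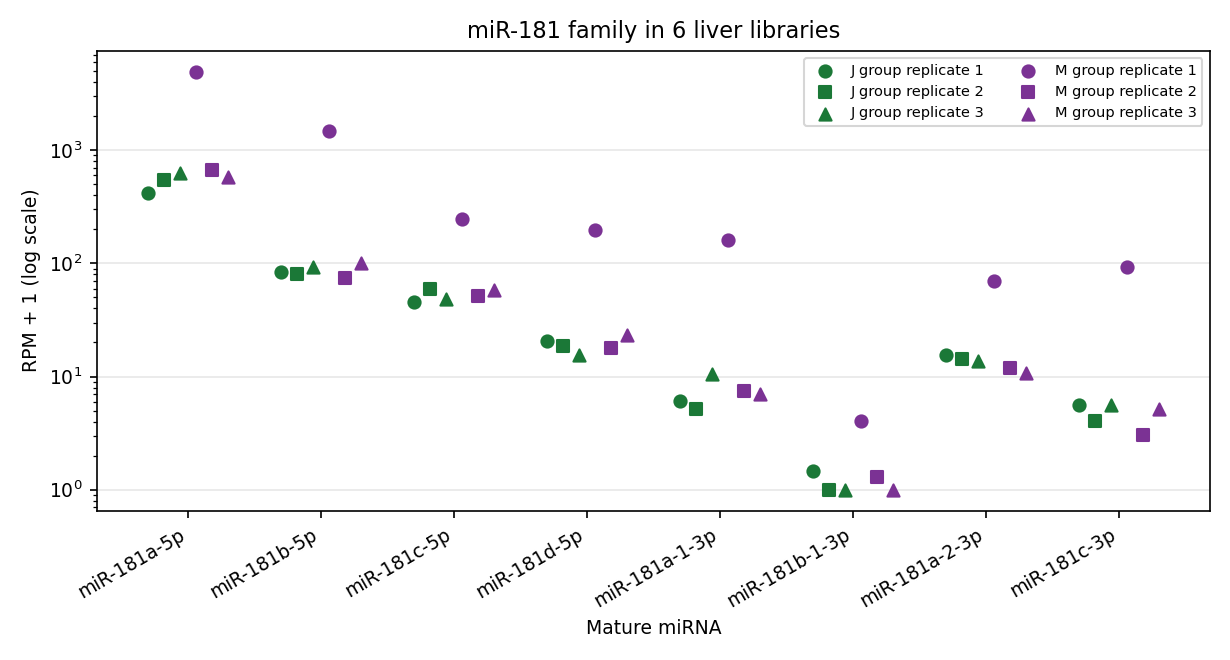
Level of each miR-181 member in the 6 libraries, as RPM + 1 on a log axis; each point is 1 library, green for the J group and purple for the M group. The circle of M group replicate 1 lies above the other 5 points for all 8 members, from 4951 RPM for miR-181a-5p to 3.05 RPM for miR-181b-1-3p.

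Ranked by the median over all 6 libraries, the order was miR-181a-5p (604 RPM), miR-181b-5p (87.5 RPM), miR-181c-5p (54.1 RPM), miR-181d-5p (18.5 RPM), miR-181a-2-3p (13.1 RPM), miR-181a-1-3p (6.25 RPM), miR-181c-3p (4.41 RPM) and miR-181b-1-3p (0.147 RPM). Over the 5 libraries other than M group replicate 1, the ranges of neighbours in this order overlapped for miR-181a-1-3p and miR-181c-3p and for no other pair. Within a library, miR-181a-1-3p was the higher of these strands in 6 of 6 libraries. In M group replicate 1 the 5p order was the same, and miR-181a-2-3p came 7th in place of 5th.

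Summed over the 8 members, the family amounted to 593, 723 and 811 RPM in the J group and 7183, 834 and 778 RPM in the M group. For the J group this gave a mean of 709 RPM ± 110 (SD, n = 3). The M group mean of 2932 RPM ± 3682 (SD, n = 3) had an SD above the mean, and M group replicate 1 was 9.24-fold the median of the other 5 libraries. The family took 0.718% of all miRNA reads in M group replicate 1 and 0.0593% to 0.0834% in the others.

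The makeup of the 5p reads also differed in M group replicate 1. There, miR-181b-5p was 21.3% of the family's 5p reads, with a 95% Wilson interval of 20.8% to 22.0%, against 9.07% to 14.7% elsewhere. miR-181c-5p was 3.60% (3.34% to 3.88%) against 6.05% to 8.27%. Thus the miR-181b share was higher and the miR-181c share lower than in each of the other 5 libraries. The miR-181a-5p share was below the others too, at 72.2% (71.5% to 72.8%) against 74.1% to 82.7%. Its interval overlapped that of J group replicate 1, 72.3% to 75.7%. The miR-181d-5p share, at 2.87%, lay within the range of the others, 1.86% to 3.43%. These and the following intervals cover counting error only, and PCR reads are not independent molecules.

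The 3 clusters were then compared through their 3p reads, since a ratio between loci within a library does not depend on the scaling of that library. The chromosome 1 cluster (miR-181a-1-3p and miR-181b-1-3p) had 24, 15 and 27 reads in the J group and 430, 23 and 26 reads in the M group. Reads of the chromosome 2 and chromosome 8 clusters are those of miR-181a-2-3p and miR-181c-3p given above. In M group replicate 1 the 3p level was 27.1-fold, 5.40-fold and 21.9-fold the median of the other 5 libraries for the clusters on chromosomes 1, 2 and 8.

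Chromosome 2 gave the largest share of the family's 3p reads in 5 libraries, 47.4% to 64.9%. In M group replicate 1 it gave 21.3% (18.7% to 24.2%), below the Wilson interval of each of the others. Chromosome 1 gave 50.4% (47.1% to 53.8%) in that library against 20.3% to 35.5% in the others. For chromosome 8 the share was 28.3% (25.3% to 31.4%) against 10.4% to 20.9%, with intervals that overlapped those of several libraries.

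**Figure D2:**
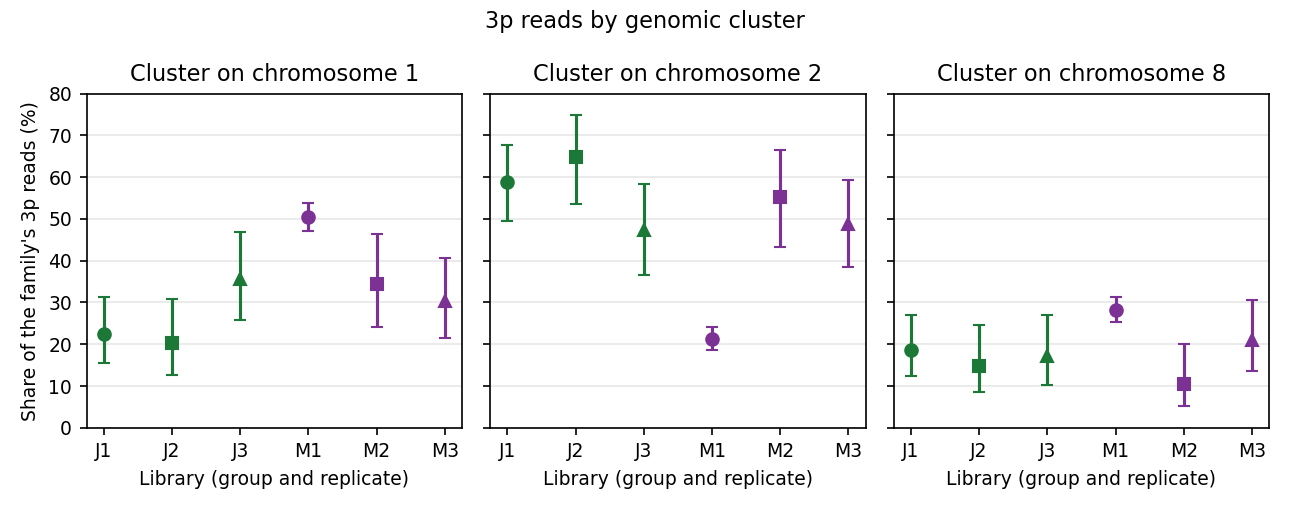
Share of the family's 3p reads that came from each genomic cluster, in percent, for J group (green) and M group (purple) replicates 1 to 3; bars are 95% Wilson intervals. In M group replicate 1 the chromosome 2 share is 21.3% and the chromosome 1 share 50.4%, while in the other 5 libraries chromosome 2 leads with 47.4% to 64.9%.

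Between the treatment groups the cluster ratios are given as values with an exact permutation p that could not fall below 0.1, with 3 libraries against 3 or, without M group replicate 1, 3 against 2. No p here could pass 0.05 whatever the ratios were. The log2 ratio of chromosome 1 to chromosome 2 reads was -1.39, -1.68 and -0.42 in the J group and 1.24, -0.69 and -0.69 in the M group, with a difference of -1.12 (J minus M, two-sided exact permutation p = 0.3). Without M group replicate 1 the difference was -0.47 (exact permutation p = 0.4), and the groups overlapped either way.

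For chromosome 1 over chromosome 8 the log2 ratios were 0.26, 0.45 and 1.05 in the J group and 0.84, 1.72 and 0.53 in the M group, a difference of -0.44 (exact permutation p = 0.4) that stood at -0.54 (exact permutation p = 0.4) without M group replicate 1. This was the one ratio in which M group replicate 1 lay inside the range of the other libraries. With 1 library left out, its difference ran from -0.69 without M group replicate 3 to -0.09 without M group replicate 2.

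For chromosome 2 over chromosome 8 they were 1.66, 2.13 and 1.47 in the J group and -0.41, 2.40 and 1.22 in the M group, a difference of 0.68 (exact permutation p = 0.6). That difference turned to -0.06 (exact permutation p = 0.9) without M group replicate 1. After adjustment over the 3 ratios, each exact permutation p was 0.6.

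The balance of the arms was read at the miR-181c hairpin, whose arms both have a single locus. The 3p strand was 9.43%, 5.02% and 8.90% of the miR-181c reads in the J group and 27.1%, 3.89% and 6.79% in the M group. The Wilson interval of M group replicate 1, 24.3% to 30.1%, lay above that of each other library. The log2 ratio of 3p to 5p differed by -0.34 between the groups (J minus M, exact permutation p = 0.9) and by 0.58 (exact permutation p = 0.3) without M group replicate 1, where the groups overlapped.

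For miR-181a, with both loci summed, M group replicate 1 did not lie above the other libraries. The 3p strands were 4.47%, 3.11% and 3.44% of the miR-181a reads in the J group and 4.44%, 2.50% and 2.67% in the M group, so that M group replicate 1 fell just below J group replicate 1. The log2 ratio differed by 0.24 between the groups (exact permutation p = 0.5). Without M group replicate 1 it differed by 0.51 (exact permutation p = 0.2), and all 3 J libraries, from -4.96 upwards, lay above M group replicates 2 and 3, at most -5.19. Within the miR-181a 3p reads, the locus on chromosome 1 supplied 69.9% (66.1% to 73.4%) in M group replicate 1 and 23.8% to 42.9% in the others.

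**Figure D3:**
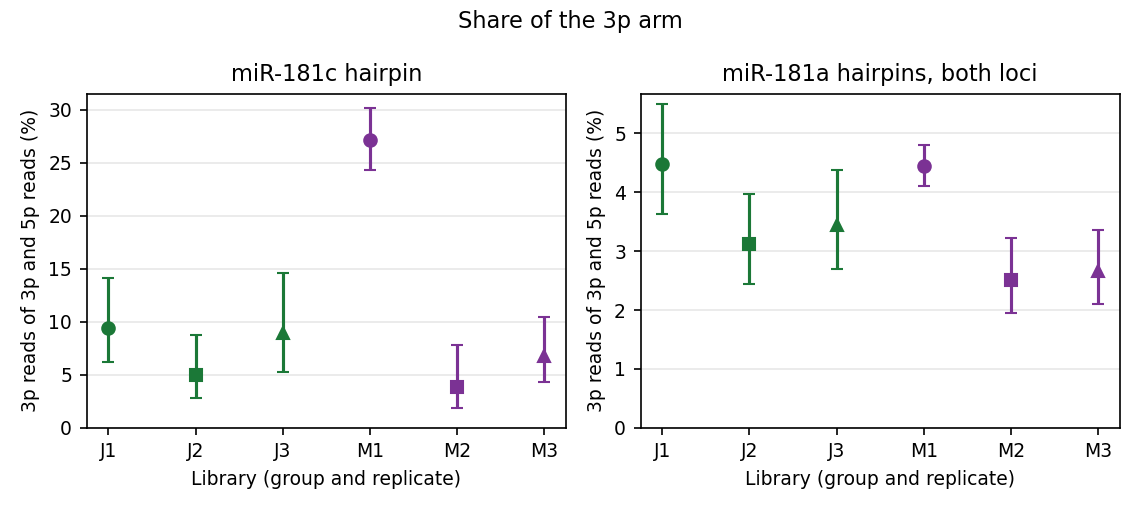
Share of 3p reads among the 3p and 5p reads of the miR-181c hairpin (left) and of the miR-181a hairpins of both loci (right), in percent, per library, with 95% Wilson intervals; the axes differ in range. M group replicate 1 is at 27.1% for miR-181c, above the other 5 libraries, and at 4.44% for miR-181a, below J group replicate 1.

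To ask whether JTXK granule altered the family, limma was applied to log2(RPM + 1) of both groups, and a miRNA was called where its log2 fold change exceeded 0.3 in size at an unadjusted p below 0.05. None of the 8 members was called, where 29 of the 548 miRNAs tested, or 5.29%, were. No member had J and M libraries that did not overlap, beside 13.5% of all miRNAs tested. With 8 members, a count of 0 is too near that share to set the family apart. The median log2 fold change of the members was -1.21 with all 6 libraries, against -0.13 over all 548 miRNAs, of which 58.9% were lower in the J group. This median is a description, since the family was selected with its level in M group replicate 1 known, and without that library it was -0.06.

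Fitted log2 fold changes (J minus M) of the 5p strands were -1.24 for miR-181a-5p (SE 0.77), -1.38 for miR-181b-5p (SE 1.03), -0.84 for miR-181c-5p (SE 0.58) and -1.26 for miR-181d-5p (SE 0.85), each with a limma adjusted p of 0.71. For the 3p strands they were -1.55 for miR-181a-1-3p (SE 1.16), -0.51 for miR-181a-2-3p (SE 0.70), -1.17 for miR-181c-3p (SE 1.17) and -0.61 for miR-181b-1-3p (SE 0.58), with limma adjusted p of 0.71 to 0.81. These values and their errors include the M group replicate 1 levels known when the family was selected and are therefore descriptions.

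Without M group replicate 1, 0 of the 7 members still tested were called, where 6.55% of the 519 miRNAs were. The median over all 519 was -0.09, and 5 of the 7 members were lower in the J group, as were 57.4% of all 519. The log2 fold change was -0.25 for miR-181a-5p (SE 0.24), -0.02 for miR-181b-5p (SE 0.25), -0.12 for miR-181c-5p (SE 0.26), -0.16 for miR-181d-5p (SE 0.30) and -0.06 for miR-181a-1-3p (SE 0.40). It turned positive for miR-181a-2-3p, at 0.37 (SE 0.29), and for miR-181c-3p, at 0.35 (SE 0.39). All limma adjusted p were 0.91 to 0.99, and miR-181b-1-3p no longer passed the filter.

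**Figure D4:**
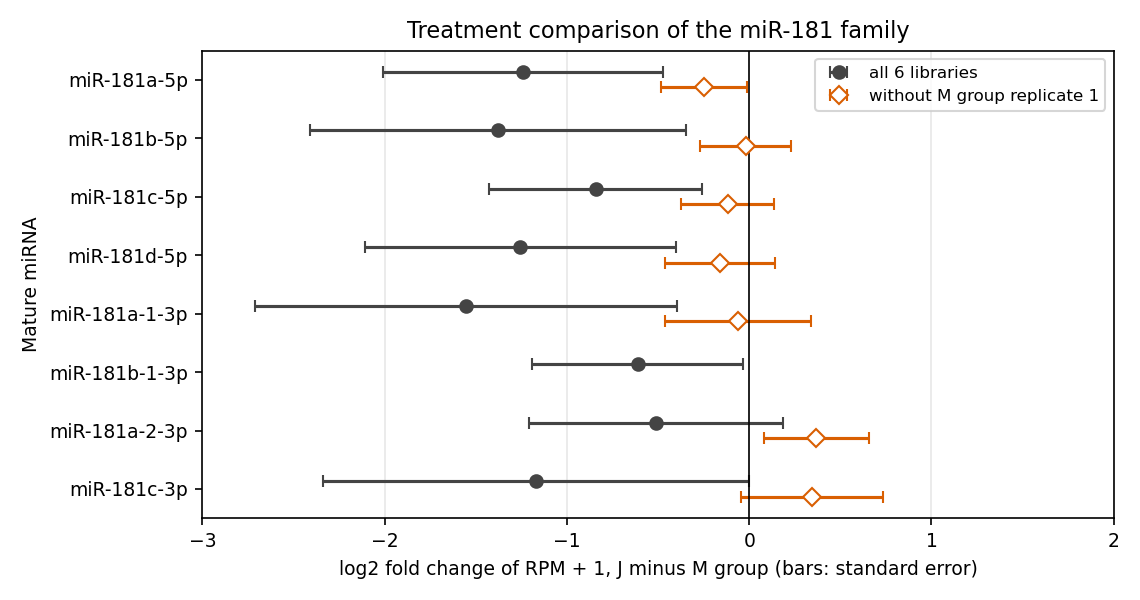
Log2 fold change of RPM + 1 between the J and M groups (J minus M) for each miR-181 member, with its standard error, from all 6 libraries (filled circles) and without M group replicate 1 (open diamonds; miR-181b-1-3p was then not tested). All 8 circles lie between -1.55 and -0.51, while the 7 diamonds lie between -0.25 and 0.37.

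Count models on the recovered reads gave larger differences with M group replicate 1 included. In edgeR no member was called, where 8.21% of the 548 miRNAs were, with log2 fold changes of -3.04 for miR-181a-1-3p to -0.97 for miR-181a-2-3p and adjusted p from 0.568. In DESeq2, miR-181a-5p was called at -1.82, with an unadjusted p of 0.0192 and a DESeq2 adjusted p of 0.489, and 4 members received no p. DESeq2 called 36 of the 534 miRNAs that received a p, or 6.74%, beside this 1 of 4 members. The 4 without a p were miR-181b-5p, miR-181d-5p, miR-181a-1-3p and miR-181c-3p. Of the 7 members with a fold over the median of the other libraries, these had the largest in M group replicate 1. So 1 of 4 is not a share of the whole family. The miR-181a-5p call includes the M group replicate 1 value with which the family was selected and is therefore a description. Without that library, in fits chosen after seeing the data, neither tool called any of the 7 members tested, where edgeR called 6.17% and DESeq2 5.39% of the 519 miRNAs. For miR-181a-5p the log2 fold change was then -0.19 in edgeR (adjusted p = 0.936) and -0.16 in DESeq2 (adjusted p = 0.997).

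Markers of other cell types were set beside the family. The summed level of 7 leukocyte miRNAs, all measured, was 988 to 2306 RPM in the other 5 libraries and 6579 RPM in M group replicate 1, and 4 of the 7 were highest in that library. Most of that sum was miR-142a-5p, from a hairpin of blood cells, at 3709 RPM against at most 961 RPM, and miR-146a-5p, which NF-kB induces, at 1798 RPM against at most 845 RPM. The other strand of the first hairpin, miR-142a-3p, was at 444 RPM against 25.3 to 47.0 RPM. By contrast, miR-223-3p, which is abundant in neutrophils and other myeloid cells, was at 25.1 RPM, within the 15.8 to 38.2 RPM of the others. miR-155-5p, induced in activated lymphocytes, was at 3.43 RPM, within 1.39 to 7.22 RPM, and miR-150-5p, a miRNA of mature lymphocytes, was at 47.2 RPM, above 25.8 to 38.7 RPM.

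The 5 biliary epithelium miRNAs summed to 4298 RPM in M group replicate 1 and to 950 to 2379 RPM elsewhere, and 4 of the 5 were highest there. Most of that sum was miR-200a-3p, at 1921 RPM against at most 1033 RPM, and miR-200b-3p, at 2163 RPM against at most 1220 RPM. In the same library miR-200c-3p was at 32.4 RPM against at most 28.4 RPM, and miR-141-3p was within the range of the others. The 4 stromal miRNAs measured of 5 summed to 25242 RPM against 12582 to 20214 RPM, and 2 of the 4 were highest there. Most of that sum was miR-143-3p, at 18708 RPM against at most 12166 RPM, while miR-145a-5p and miR-214-3p were within the range of the others. The endothelial sum (3 of 4 measured) was 10054 RPM against 10340 to 15357 RPM. Of these, miR-126b-3p was below the others, at 5131 RPM against at least 6015 RPM, and miR-126a-3p and miR-126b-5p were within their range. The erythroid sum (3 of 4 measured), 4138 RPM, was within 2581 to 9886 RPM. No measured marker was at 0 in any library. The part of these cell types in the miR-181 levels was not tested. Between the groups, limma called 2 of the 7 leukocyte and 3 of the 4 stromal miRNAs lower in the J group and none of the other lists, beside the 5.29% called over all miRNAs. These were miR-342-3p and miR-146a-5p among the leukocyte miRNAs, and miR-199a-5p, miR-145a-5p and miR-214-3p among the stromal ones. Without M group replicate 1, 4 of these 5 were still called, and miR-214-3p was not, at a log2 fold change of -0.57 after -0.55. The log2 fold change of miR-146a-5p was -1.79 with all 6 libraries and -1.24 without that library, and for miR-342-3p it was -1.79 and -1.69.

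Likeness to miR-181a-5p was taken as the Pearson correlation of log2(RPM + 1) over the 6 libraries. The other family members were left out, and 313 tested miRNAs with at least 10 reads in each library were considered. The most alike of these were miR-142a-3p (0.989), miR-128-3p (0.988), miR-19b-3p (0.984), miR-142a-5p (0.973) and miR-18a-5p (0.968). Spearman's rho was 0.6 to 0.771. Without the pair of libraries farthest from the median of miR-181a-5p, M group replicate 1 and J group replicate 1, the Pearson values ran from -0.417 to 0.650. Without M group replicate 1 alone, the Pearson value was 0.937 for miR-19b-3p, 0.605 to 0.668 for both miR-142a strands and miR-128-3p, and 0.0306 for miR-18a-5p. The likeness of these miRNAs thus depended on those libraries to differing degrees, least for miR-19b-3p, and is given as a description.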

How the data were processed

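Per the paper's methods, the authors prepared small RNA libraries (NEBNext) from liver of 3 mice per group, sequenced them on an Illumina HiSeq, compared unique reads with Rfam and miRBase, and computed RPM. The deposited table gives RPM for 1039 miRNAs (762 with mouse names) in 6 columns, with 0 columns of other samples; the part of each name after the first _ is not defined in the sources used here and was dropped. RPM values were whole multiples of the value of 1 read (tolerance 0.01), so reads were recovered. The submitters' notes name the build mm9, but the table holds no coordinates.

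Groups came from the labels. miRNAs with a mean above 1 RPM in at least 1 group (548) were tested with limma 3.58.1 (R 4.3.3; eBayes with trend, two-sided) on log2(RPM + 1), with Benjamini-Hochberg adjustment over all 548. Cluster and arm ratios used exact two-sided permutation (numpy 2.4.6). Shares of reads have 95% Wilson intervals (scipy 1.17.1). Count models (DESeq2 1.42.0, edgeR 4.0.16) were fitted to those reads among 16 alternatives, and without M group replicate 1 as additions made after the data were seen. The limma step was checked on simulated data with 200 changed miRNAs. The simulation gave all miRNAs a common spread and held no outlying library. It therefore does not show how limma behaves with a library like M group replicate 1. Members, marker lists and tests were chosen with earlier results of these data known. Beside the members, the 5 miRNAs outside the family with the highest correlation with miR-181a-5p, marker miRNAs and miR-298-5p are named. The last was chosen after its values were seen. Figures were drawn with matplotlib 3.10.9.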

Additional observations from a re-analysis of the deposited data

How the results depend on the processing

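The count of miRNAs past the thresholds was 29, rose to 45 in edgeR and ranged from 21 to 46 with 1 library left out, the highest without M group replicate 2. The count of members was 0 except in DESeq2, where it was 1 (miR-181a-5p, log2 fold change -1.82) beside 36 miRNAs in all. With 1 library left out, the log2 fold change ran from -0.98 to 0.37 for miR-181a-2-3p and from -2.12 to 0.35 for miR-181c-3p, and the difference in the log2 ratio of chromosome 2 to chromosome 8 from -0.0621 to 1.34. Each of these turned sign without M group replicate 1. The other 6 members kept a negative log2 fold change in each of the 16 alternatives given with the methods that tested them. The median over the members was -0.06 in limma without M group replicate 1. Count models without that library, added after seeing the data, turned it to 0.0361 in edgeR and 0.0619 in DESeq2, which are also the values of miR-181b-5p. They gave 0.0512 and 0.0776 for miR-181a-1-3p, 0.467 and 0.504 for miR-181a-2-3p and 0.460 and 0.496 for miR-181c-3p. The filter at 10 RPM and the fit without M group replicate 1 did not test miR-181b-1-3p. With the replicate block, 27 miRNAs and 0 members were called. Deviations of same-numbered libraries correlated at 0.0453, 0.0584 and -0.0059, so the numbers were not taken to pair the mice.

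The 3p strands other than miR-181b-1-3p had 7 to 63 reads outside M group replicate 1, which sets the width of their intervals. The smallest limma adjusted p over all 548 miRNAs was 0.42, and 0 were under 0.05, where 29 had an unadjusted p under 0.05.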
